A study of Homo sapiens with 6 samples.

Results

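10 genes whose products are used to mark cancer stem cells were followed in a breast cancer cell line that was made to express oncostatin M (OSM). They are CD44, CD24, PROM1, PROCR, THY1, ALDH1A1, ALDH1A3, SOX2, SOX9 and NES. They were chosen by name, and a row of the data belonged to a member if the platform annotation gave it that symbol. All 10 were found, with 1 transcript cluster each, among 17687 named genes and 21448 transcript clusters. A transcript cluster is the set of probes on a Clariom S array that reads 1 gene, so the standard and variant splice forms of CD44 were not told apart.

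The cells were MDA-MB-231, derived from a human breast carcinoma that lacks the estrogen and progesterone receptors and HER2. A stable line that carries pUNO1-hOSM, a vector for human OSM (MDA-MB-231-hOSM), was set against one that carries pUNO1-empty (MDA-MB-231-hC), each made with 2 μg of vector and kept in blasticidin at 10 μg/mL. Total RNA of 3 sets, each with 1 array per line, was hybridised (n = 3 arrays per line). Sets are taken to be passages of lines grown in parallel, no separate transfections or clones are stated, and a change that arose in transfection or selection cannot be told apart from an effect of OSM. The p-values therefore measure only the spread of the hOSM minus hC differences over sets, in part that of all transcript clusters together. This spread may be technical. Because whole cultures were measured, a change in the share of cells that express a marker and a change in the RNA per cell cannot be told apart.

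CD44 is a receptor for hyaluronan, a sugar polymer of the extracellular matrix, and in breast tumors a CD44-high, CD24-low surface phenotype is the classical description of cells able to start a new tumor. Activity of aldehyde dehydrogenases, which convert retinaldehyde to retinoic acid, is the other common criterion, and the transcription factors SOX2 and SOX9, the surface proteins CD133 (PROM1), EPCR (PROCR) and CD90 (THY1) and the filament protein nestin (NES) are used in various tissues. OSM belongs to the interleukin 6 family of cytokines and signals through OSMR and gp130 to JAK kinases and STAT transcription factors, with AP-1 factors downstream of the MAP kinases.

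The bases upstream of the starts of CD44 and CD24, which moved in opposite directions, are shown with the only member window that held either of the motifs searched. Each is the 250 bases before a RefSeq start on GRCh38.p14, written 5′ to 3′ on the strand of the gene. For CD44 it is chr11:35138921-35139170 (plus strand), for the outermost of the CD24 starts chr6:106975628-106975877 (minus strand), and for an alternative start of PROM1 chr4:16076119-16076368 (minus strand). Capitals mark the letters of the AP-1 motif.
CD44: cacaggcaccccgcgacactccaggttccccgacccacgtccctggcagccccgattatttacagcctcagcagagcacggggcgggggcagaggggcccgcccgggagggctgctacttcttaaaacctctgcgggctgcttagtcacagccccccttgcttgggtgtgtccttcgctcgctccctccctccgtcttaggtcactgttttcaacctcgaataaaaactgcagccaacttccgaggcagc
CD24: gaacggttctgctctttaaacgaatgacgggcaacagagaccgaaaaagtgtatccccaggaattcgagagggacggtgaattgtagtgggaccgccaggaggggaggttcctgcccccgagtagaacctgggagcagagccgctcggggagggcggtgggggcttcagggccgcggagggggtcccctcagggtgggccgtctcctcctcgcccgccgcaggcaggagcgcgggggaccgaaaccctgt
PROM1: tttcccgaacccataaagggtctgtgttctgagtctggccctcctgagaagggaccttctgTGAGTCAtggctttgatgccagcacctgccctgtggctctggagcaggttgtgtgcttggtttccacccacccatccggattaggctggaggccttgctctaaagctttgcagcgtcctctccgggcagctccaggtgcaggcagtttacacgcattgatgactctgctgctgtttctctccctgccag
The motifs searched on both strands were TTCNNNGAA, the core bound by STAT factors, and TGANTCA, the core bound by AP-1. RefSeq windows were found for 8 members, with 13 windows in all. The STAT letters were in the windows of 0 of the 8 members and the AP-1 letters in those of 1, PROM1, where they begin at position -189 from the start. Each motif occurred in 6.57% of 35116 such windows. These are matches of letters and not sites, and their absence says only that the letters are not in the window. SOX9 and THY1 were not searched.

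The deposited values are log2 signals, on which a difference of 1 is 2-fold. OSM itself had 14.90, 14.82 and 14.69 in MDA-MB-231-hOSM, against 5.06, 5.11 and 5.26 in MDA-MB-231-hC (sets 1, 2 and 3), and its receptor OSMR was raised 7.67-fold (adjusted p = 0.000346, limma with the set as a block). Background was judged from the mean signals of 348 olfactory receptor genes, which breast cells are not known to use, and their 95th percentile of 5.78 served as a guide. A gene was called changed at a Benjamini-Hochberg adjusted p under 0.1 and over 2-fold, and 888 transcript clusters were called, 557 on the higher and 331 on the lower side in MDA-MB-231-hOSM. Array medians lay between 6.82 and 6.85. Of the markers expected in MDA-MB-231, 5 of 5 were above the guide in both lines, the member CD44 among them. AXL, another of them, passed the adjusted p on the lower side under 2-fold (13.63 against 14.50, adjusted p = 0.00843, limma). ESR1, PGR and CDH1 were within the guide, and EPCAM, expected to be low, was above it (8.53 against 9.63). ERBB2, the gene of HER2, was not found among the named genes. Of 6 leukocyte markers measured, 2 were above the guide in MDA-MB-231-hOSM and 1 in MDA-MB-231-hC, and the pan-leukocyte gene PTPRC was within it (4.94 against 5.07). CSF1R was above it in MDA-MB-231-hOSM alone and passed the adjusted p under 2-fold (5.87 against 5.44, adjusted p = 0.0927, limma). The summed linear signal of the leukocyte markers ran from 5741 to 6824 in MDA-MB-231-hOSM and from 4851 to 5807 in MDA-MB-231-hC, with CD68 as the main term (log2 12.60 against 12.29), and its part in the results was not tested. For fibroblasts these were 2 and 2 of 6, with sums of 583 to 629 against 608 to 654. COL1A1 (5.91 against 6.09) and COL1A2 (8.74 against 8.85) were above the guide by their means in both lines. PDGFRA and PDGFRB were within the guide, PDGFRB passing on the lower side (4.08 against 4.60, adjusted p = 0.0639, limma). Of 3 endothelial markers, 0 and 1 were above the guide, VWF passing on the lower side (5.58 against 6.07, adjusted p = 0.0913), with sums of 85 to 97 against 103 to 119, and the part of these genes in the results was not tested either.

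CD44 rose and CD24 fell in MDA-MB-231-hOSM, and both did so in every set. CD44 was high in both lines, with log2 signals of 14.63, 14.70 and 14.59 in MDA-MB-231-hOSM and 13.96, 13.87 and 13.96 in MDA-MB-231-hC. Every MDA-MB-231-hOSM array was above every MDA-MB-231-hC array, and the means were 14.64 ± 0.0557 and 13.93 ± 0.052 (SD, n = 3 each). The arrays of a set mirror each other, so for any marker a lack of overlap mostly restates that its set differences share a sign. It held for 50.0% of all transcript clusters. The difference of 0.71 (SE 0.12, 95% confidence interval 0.42 to 1.00), or 1.64-fold, had an adjusted p of 0.0175 in limma, so that CD44 passed the p threshold but, at under 2-fold, was not called. With any 1 set left out the difference was 0.65 to 0.75 and the adjusted p 0.108 to 0.125.

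CD24, a small glycoprotein on a lipid anchor that binds P-selectin and Siglec-10, had 7.62, 7.68 and 7.61 in MDA-MB-231-hOSM and 8.76, 8.70 and 8.72 in MDA-MB-231-hC. These groups did not overlap either, and the arrays of a line lay within 0.07 of each other. That closeness leaves out any spread shared by both arrays of a set. CD24 was 2.13-fold lower in MDA-MB-231-hOSM (log2 difference -1.09, SE 0.12, interval -1.38 to -0.80, adjusted p = 0.00356, limma) and was called. It was also called whichever set was left out, with log2 differences of -1.13 to -1.07 over the alternatives fitted. CD24 has near-identical processed copies elsewhere in the genome, so its signal may include theirs. Within a set, the change of CD44 minus that of CD24 was 1.81, 1.85 and 1.74 on the log2 scale (mean 1.80, SD 0.0557).

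**Figure D1:**
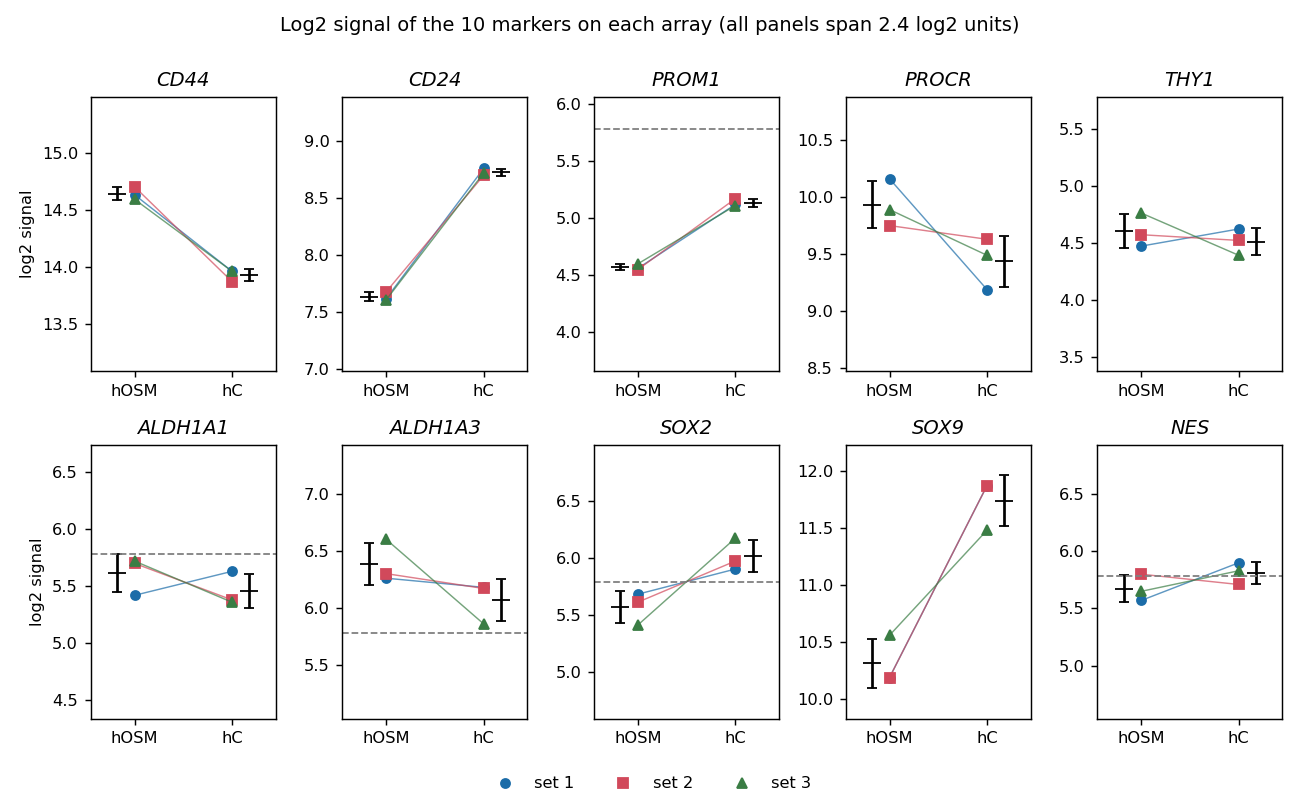
Log2 signal (vertical axis) of each marker in MDA-MB-231-hOSM, left, and MDA-MB-231-hC, right. Points are arrays, joined by set, crosses with bars are means and SD (n = 3 each), every panel spans the same number of log2 units, and the dashed line is the background guide of 5.78 where it falls in the panel. CD44 is higher and CD24 and SOX9 are lower in every MDA-MB-231-hOSM array, and PROM1, THY1 and ALDH1A1 lie under the guide. For SOX9 the points of sets 1 and 2 coincide.

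The other surface markers gave no called change. PROM1, which encodes the membrane-protrusion glycoprotein CD133, had 4.56, 4.55 and 4.60 in MDA-MB-231-hOSM and 5.12, 5.17 and 5.11 in MDA-MB-231-hC. The groups did not overlap, but every array was under the background guide. The difference of -0.56 (SE 0.12, interval -0.85 to -0.28) had an adjusted p of 0.0321 in limma, and 0.149 to 0.156 with any 1 set left out. It is given as a difference of signals at background level, with no fold.

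PROCR, the endothelial protein C receptor that also marks a population of mammary stem cells in mice, was well above the guide. It had 10.16, 9.75 and 9.89 in MDA-MB-231-hOSM and 9.19, 9.63 and 9.49 in MDA-MB-231-hC. The groups did not overlap, but the differences were uneven, with 0.97 in set 1, 0.12 in set 2 and 0.40 in set 3. The mean difference was 0.50 (SE 0.18, interval 0.06 to 0.94, 1.41-fold) with an adjusted p of 0.133 in limma, and it passed at 0.0413 in the fit without the set as a block. That fit counts the arrays of a set as independent although they mirror each other, and its standard error is smaller (for PROCR 0.15 against 0.18 with the block). THY1, the GPI-anchored glycoprotein CD90 of mesenchymal stromal cells, had 4.47, 4.57 and 4.76 in MDA-MB-231-hOSM and 4.62, 4.52 and 4.39 in MDA-MB-231-hC, all under the guide. The groups overlapped and the set differences had no common sign (mean 0.09, interval -0.26 to 0.44, adjusted p = 0.724, limma).

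Neither of the aldehyde dehydrogenases that the ALDH assay of stem cells is chiefly ascribed to passed the test. ALDH1A1, the cytosolic retinaldehyde dehydrogenase, had 5.42, 5.70 and 5.72 in MDA-MB-231-hOSM and 5.63, 5.38 and 5.36 in MDA-MB-231-hC. All arrays were under the guide and the groups overlapped, with a mean difference of 0.16 (SE 0.16, interval -0.22 to 0.53, adjusted p = 0.555, limma). ALDH1A3, the isoform to which ALDH activity of breast cancer cells is mostly attributed, was above the guide in both lines. It had 6.26, 6.30 and 6.60 in MDA-MB-231-hOSM and 6.18, 6.17 and 5.86 in MDA-MB-231-hC. The groups did not overlap, though set 3 carried most of the difference, with 0.74 against 0.08 in set 1 and 0.13 in set 2. The mean difference of 0.32 (SE 0.17, interval -0.09 to 0.72) had an adjusted p of 0.267 in limma with the block and 0.0992 without it, and without set 3 it was 0.11.

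Of the transcription factors, SOX9 was lower in MDA-MB-231-hOSM. SOX9, which acts in chondrocytes and in luminal progenitors of the breast, had 10.19, 10.19 and 10.56 in MDA-MB-231-hOSM and 11.87, 11.87 and 11.48 in MDA-MB-231-hC. The groups stood far apart, and set 3 showed a smaller difference (-0.92) than sets 1 and 2 (-1.68 in both). SOX9 was 2.69-fold lower in MDA-MB-231-hOSM (log2 difference -1.43, SE 0.18, interval -1.87 to -0.98, adjusted p = 0.0064, limma) and was called. Without set 2 the difference was -1.30 with an adjusted p of 0.105, and it was then not called.

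SOX2, a pluripotency factor, straddled the background guide. It had 5.68, 5.61 and 5.41 in MDA-MB-231-hOSM, all under the guide, and 5.90, 5.97 and 6.17 in MDA-MB-231-hC, all above it. The groups did not overlap, and the difference of -0.45 (SE 0.15, interval -0.80 to -0.09) had an adjusted p of 0.105 in limma, against 0.0169 without the block. Without the dim transcript clusters SOX2 passed at 0.0708. NES encodes nestin, an intermediate filament protein of neural progenitors, and had 5.57, 5.80 and 5.65 in MDA-MB-231-hOSM and 5.90, 5.71 and 5.83 in MDA-MB-231-hC. These values lie around the guide and overlap, with a mean difference of -0.14 (interval -0.47 to 0.19, adjusted p = 0.544, limma).

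**Figure D2:**
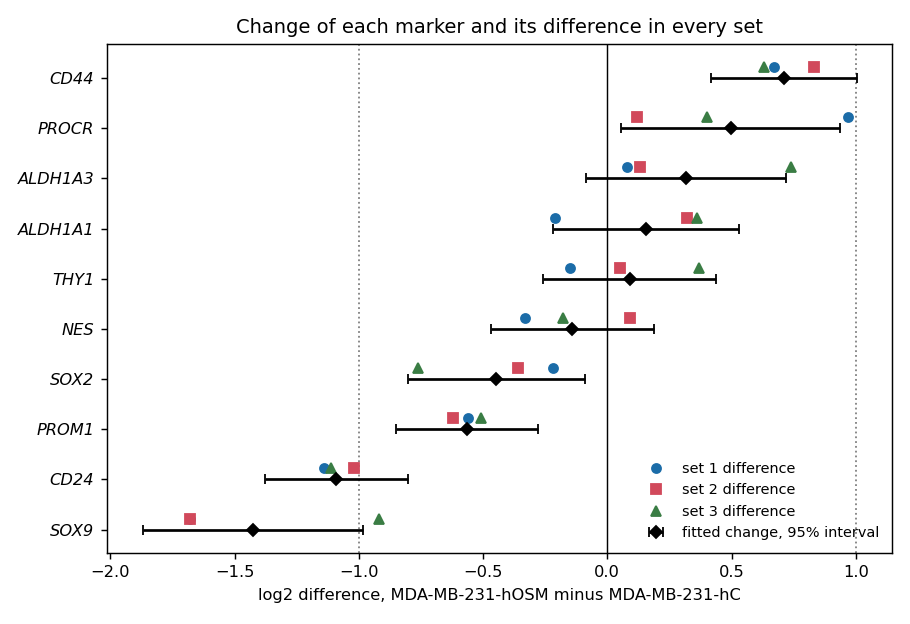
Change of each marker, MDA-MB-231-hOSM minus MDA-MB-231-hC, in log2 units (horizontal axis). Black diamonds with bars are the limma estimates with the set as a block and their 95% confidence intervals, coloured symbols are the differences within sets 1, 2 and 3, and dotted lines mark 2-fold. CD24 and SOX9 lie beyond 2-fold on the lower side, the interval of CD44 runs from 0.42 to 1.00, and for SOX9 sets 1 and 2 coincide at -1.68.

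Counted together, 2 of the 10 markers were called, both lower in MDA-MB-231-hOSM and 0 higher. Over all transcript clusters 4.14% were called, 2.60% higher and 1.54% lower. At the adjusted p alone 4 markers passed, CD44 on the higher side and CD24, PROM1 and SOX9 on the lower, beside 19.7% of all transcript clusters, 9.22% higher and 10.4% lower. Of the 4, CD44, CD24 and SOX9 were above the guide in both lines. The arrays of the lines did not overlap for 7 of the 10 markers, beside 50.0% of all transcript clusters. The median log2 difference was -0.025 over the markers and -0.03 over all transcript clusters. With so few genes these shares describe the markers, and no test was made of them as a group.

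**Figure D3:**
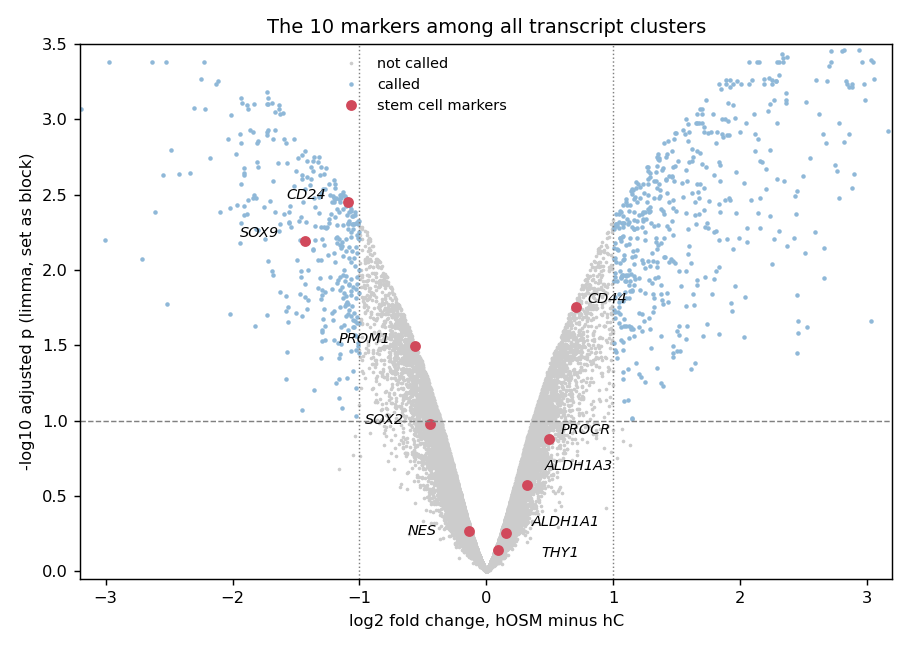
Log2 difference, MDA-MB-231-hOSM minus MDA-MB-231-hC (horizontal axis), against -log10 of the adjusted p of limma with the set as a block (vertical axis), for all transcript clusters. Red points are the 10 markers, blue points other called transcript clusters, and lines mark the thresholds. CD24 and SOX9 are in the called region on the lower side, CD44 is above the p line within 2-fold, and 78 transcript clusters lie outside the window.

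The genes around the markers were read in 12 lists of 221 genes in all, which were chosen with earlier results of these data known, and their counts stand beside the 4.14% called over all transcript clusters. Among the partners of CD44, 1 of 18 measured genes was called higher and 0 lower, a share near the 4.14%, with a median of 0.10 beside -0.03 over all transcript clusters. At the adjusted p alone, shares in the lists ran from 2 of 19 aldehyde dehydrogenases to 10 of 19 mammary luminal genes, beside 19.7% of all transcript clusters. Among the partners of CD44 9 of 18 passed, much as 10 of 20 other stem cell surface markers did, and the list was not tested as a group. The called gene was HAS2, which makes hyaluronan, with 12.57, 12.51 and 12.02 in MDA-MB-231-hOSM and 10.75, 10.79 and 11.30 in MDA-MB-231-hC (2.68-fold, adjusted p = 0.0142, limma, but 0.123 without set 1 and 0.145 without set 2). The cell surface proteases that release the CD44 ectodomain passed the p threshold under 2-fold in the case of MMP14 (log2 difference 0.99, adjusted p = 0.00558) and ADAM17 (0.68, adjusted p = 0.034), whereas ADAM10 had 0.19 (adjusted p = 0.372). Of the proteins that tie CD44 to actin, ezrin (EZR) fell by 0.73 (adjusted p = 0.0197), and moesin (MSN) had 0.06 (adjusted p = 0.79). Radixin (RDX) had -0.29 (adjusted p = 0.233, limma). NF2, of the same list, had -0.98 (adjusted p = 0.0108, limma) and was under the guide in MDA-MB-231-hOSM (5.28 against 6.26). ESRP1, the epithelial splicing factor that favours variant CD44 forms, passed on the lower side but was under the guide in both lines (3.52 against 3.94, adjusted p = 0.0747, limma). On the higher side CD74 (0.91, adjusted p = 0.0381), SRGN (0.79, adjusted p = 0.0276) and SPP1 (0.66, adjusted p = 0.0482) passed in limma and were not called. SPP1 was under the guide in both lines.

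Of 19 aldehyde dehydrogenases measured, the markers ALDH1A1 and ALDH1A3 among them, 1 was called lower and 0 higher, likewise near the 4.14%, with a median of -0.07. It was ALDH1A2, an isoform that also makes retinoic acid, with 4.96, 5.77 and 5.74 in MDA-MB-231-hOSM, all under the guide, and 7.21, 6.35 and 6.40 in MDA-MB-231-hC. Its MDA-MB-231-hC mean was 1.83-fold above the guide. The log2 difference between the lines was -1.16 (interval -1.95 to -0.38, adjusted p = 0.0704, limma), with -2.25, -0.58 and -0.66 in sets 1, 2 and 3. ALDH1A2 lost its call whichever set was left out (0.131 to 0.214). In the retinoid pathway that these enzymes feed, 3 of 21 genes were called, all higher, with a median of 0.16. The retinoic acid receptor RARB was at 10.92, 10.60 and 11.16 in MDA-MB-231-hOSM and 7.56, 7.99 and 7.37 in MDA-MB-231-hC, a 9.54-fold difference (adjusted p = 0.000748, limma). RDH10, which oxidises retinol to retinaldehyde, was 4.77-fold higher (adjusted p = 0.00913, and 0.11 and 0.149 without sets 2 and 3). TGM2, a transglutaminase, was 3.94-fold higher (adjusted p = 0.000559).

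Of 18 SOX genes measured, the markers SOX2 and SOX9 among them, SOX9 was the 1 called, again near the 4.14%. Of 23 pluripotency and self-renewal factors, 2 were called higher and 2 lower, with a median of -0.02. ID1, an inhibitor of basic helix-loop-helix factors, stood at 13.07, 13.48 and 13.73 in MDA-MB-231-hOSM and 10.64, 10.21 and 9.93 in MDA-MB-231-hC, 8.98-fold higher (adjusted p = 0.00119, limma). The histone demethylase KDM5B was 2.08-fold higher (adjusted p = 0.00904, and 0.111 without set 3). KLF4, a reprogramming factor, had 5.40, 5.57 and 5.92 in MDA-MB-231-hOSM, the last of them above the guide, and 7.10, 6.92 and 6.52 in MDA-MB-231-hC. The log2 difference was -1.22 (adjusted p = 0.0194, and 0.129 and 0.162 without sets 1 and 2), and -0.60 within set 3. KLF2 was 2.04-fold lower (adjusted p = 0.0604), and it lost its call whichever set was left out. NANOG was under the guide in both lines (5.18 against 5.27).

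Among 20 other surface proteins used to mark stem-like cells, 3 were called higher and 5 lower, with a median of -0.07. Integrin β3 (ITGB3) was at 9.33, 10.02 and 8.94 in MDA-MB-231-hOSM and within the guide in MDA-MB-231-hC, at 5.41, 4.74 and 5.67. Its MDA-MB-231-hOSM mean was 12.5-fold above the guide (adjusted p = 0.00143 between the lines, limma). CDCP1 (2.50-fold) and CD47, which signals to macrophages not to engulf a cell (2.37-fold), were also higher, CD47 with an adjusted p of 0.116 without set 3. CXCR4, the receptor of the chemokine CXCL12, was 2.86-fold lower (adjusted p = 0.00279), and the drug exporter ABCG2 was 2.14-fold lower (adjusted p = 0.00434). L1CAM (-1.15) and EPCAM (-1.10) were called lower, but L1CAM lost its call without set 1 or set 2, and EPCAM whichever set was left out. TSPAN8 differed by -1.59 under the guide in both lines. Of 10 markers of mesenchymal stromal cells, to which THY1 belongs, ENG (endoglin, CD105) was the 1 called, at 12.57, 12.50 and 12.63 in MDA-MB-231-hOSM and between 7.94 and 8.07 in MDA-MB-231-hC, 23.6-fold higher (adjusted p = 5.6e-05, limma). Of 12 intermediate filament genes other than NES, limma called 0, and 1 was called without set 2. At the adjusted p alone 3 of the 12 passed, beside 19.7% of all transcript clusters.

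**Figure D4:**
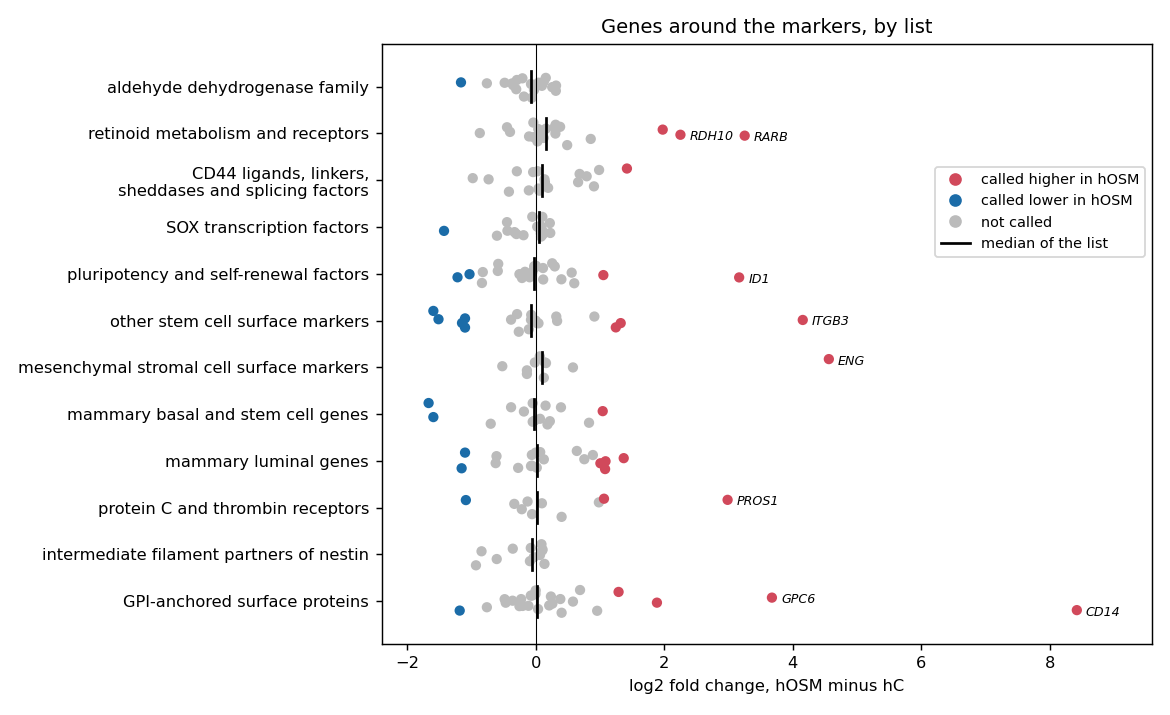
Log2 difference, MDA-MB-231-hOSM minus MDA-MB-231-hC (horizontal axis), of every measured gene of the 12 lists (rows). Red points were called higher and blue points lower in MDA-MB-231-hOSM, grey points were not called, and black bars are list medians. The medians lie between -0.07 and 0.16, and the named genes are those furthest to the right.

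The genes whose 6 log2 signals, centred on their own mean, lay nearest to those of a marker were sought among 10788 genes above the guide. For CD44 they were TALDO1, SPRED1 and LPP, with a root mean square difference of 0.0163 to 0.0186 log2 units. For CD24 they were PHKA1, CCND1 and SSX2IP (0.0292 to 0.034), and for SOX9 they were BMP4, GKAP1 and TMEM71 (0.059 to 0.085). With 6 arrays in 2 lines this likeness mostly restates the size of the difference between the lines.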

How the data were processed

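6 arrays were used, 3 of MDA-MB-231-hOSM and 3 of MDA-MB-231-hC. The values deposited by the authors are log2 signals, with 1 value for each transcript cluster on each array. The submitters' processing notes name RMA and the Transcriptome Analysis Console 4.0. The variant of RMA, the array library and the genome build were not given in the sources used here. The log2 signals were used as deposited. Symbols came from the platform annotation, which names 1 gene for 17709 of the 21448 transcript clusters. No gene of the 10 had more than 1 transcript cluster. With no detection p-values in the values used, the 95th percentile of 348 olfactory receptor genes was the guide to background.

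The lines were compared with limma 3.58.1 (R 4.3.3; lmFit and eBayes), with the set as a block, Benjamini-Hochberg adjustment over all transcript clusters, and a call required an adjusted p under 0.1 and a change over 2-fold, the thresholds of the study. The labels give set numbers to both lines, which were grown in parallel. The values carry them: deviations from the line means of same-numbered arrays correlated at -0.993, -0.995 and -0.992, so the arrays of a set mirror each other. The median SD was 0.00764 for set means and 0.225 for set differences, hence the SDs of a line leave out spread shared by both arrays of a set. eBayes moderates the variance of a transcript cluster towards that of all, so its SE does not come from its own differences alone. Without moderation the SE was 0.04 for CD24 and 0.25 for SOX9, in place of 0.12 and 0.18. The fit was tested on simulated data.

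The markers and the lists were chosen with earlier results of these data known. Named are all markers, OSM and OSMR, in each list up to 4 called genes with the largest change, and the 3 genes most like CD44, CD24 and SOX9. Other genes were named after their values were seen. For a called gene under the guide on all arrays of 1 line only, the fold given is that of the brighter line's mean over the guide. That fold leaves out the spread over sets and is not a lower bound. Promoter windows are from RefSeq (GRCh38.p14). Alternatives were no block, other scalings, filters, variance settings and thresholds, other background guides, and each set left out. The number of arrays limits the precision.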

Additional observations from a re-analysis of the deposited data

How the results depend on the processing

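Called markers numbered 0 with no moderation of the variance and 4 with no fold limit. With a set left out they numbered 1 to 2, SOX9 being lost without set 2. In every other alternative fitted they numbered 2. Over all transcript clusters there were 888 calls, but 11 without moderation and 4217 without a fold limit, and 659 to 869 with a set left out. In the fit with no replicate block 893 were called, including all 888 of the paired fit, and CD24 and SOX9 were the called markers in both. Without the block SOX2, PROCR and ALDH1A3 also passed the p threshold under 2-fold, in a fit that treats mirrored arrays as independent. SOX2 (adjusted p = 0.0708) and PROCR (0.0995) also passed without dim transcript clusters, and PROCR with trend and robust settings (0.0721). The sign turned for THY1 without set 3 (-0.05, range over left-out sets -0.05 to 0.21), which is under the background guide. Of the markers, 5 in MDA-MB-231-hOSM and 7 in MDA-MB-231-hC were above the guide, 4 and 4 with the 99th percentile of the same genes, and 3 and 4 with keratin-associated and taste receptor genes. ALDH1A3 (6.39 against 6.07) was under that 99th percentile of 6.93 in both lines. With the keratin-associated and taste receptor guide of 8.67, CD24 was under it in MDA-MB-231-hOSM (7.64) and just above it in MDA-MB-231-hC (8.73). Of 34 called genes in the lists, the marker SOX9 among them, 16 were called whichever set was left out. Other scalings moved the median of all transcript clusters by under 0.01. The fit without moderation has few residual degrees of freedom, and the cause of the other changes was not tested.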

Other observations

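Genes of the mammary lineages that CD44 and CD24 are used to tell apart moved in both directions. The lists in this section are among the 12 chosen with earlier results known. Their counts stand beside 4.14% called over all transcript clusters, and no list was tested as a group. Of 19 luminal genes measured, 4 were called higher in MDA-MB-231-hOSM and 2 lower, with a median of 0.02. The simple epithelial keratins KRT8 (14.89 against 13.89, 2.01-fold), KRT18 (13.51 against 12.43, 2.12-fold) and KRT19 (12.05 against 10.97, 2.11-fold) were higher, with adjusted p = 0.00516, 0.00791 and 0.0528 in limma, but each lost its call without set 3 and without 1 other set, set 1 for KRT8 and set 2 for KRT18 and KRT19. MUC1 was also called higher, with an MDA-MB-231-hOSM mean 1.90-fold above the guide (adjusted p = 0.00322 between the lines, limma). The tight junction gene CLDN4 was 2.22-fold lower (adjusted p = 0.0176, not called without set 1 or set 2). Of 15 basal and mammary stem cell genes, SNAI2, a repressor of epithelial genes, was called higher (15.22 against 14.18, 2.06-fold, adjusted p = 0.0048, log2 difference 0.98 without set 3), and MYLK, myosin light chain kinase, was called lower (7.42 against 9.09, 3.18-fold, adjusted p = 0.0041), beside TSPAN8.

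Around PROCR, 2 of 10 genes of the protein C and thrombin system were called higher and 1 lower, beside 4.14% called over all transcript clusters. PROS1, which encodes protein S, the cofactor of activated protein C, was at 10.84, 10.98 and 11.35 in MDA-MB-231-hOSM and 8.29, 8.15 and 7.77 in MDA-MB-231-hC, 7.93-fold higher (adjusted p = 0.000748, limma). Tissue factor (F3) was 2.09-fold higher (adjusted p = 0.0113, not called without set 1 or set 2), and the thrombin receptor F2R was 2.12-fold lower (adjusted p = 0.0195, not called whichever set was left out). Among 26 other proteins that, like CD24 and THY1, sit in the membrane on a GPI anchor, 4 were called higher and 1 lower, with a median of 0.02. CD14, the co-receptor for lipopolysaccharide, was at 12.78, 13.70 and 13.90 in MDA-MB-231-hOSM and under the guide in MDA-MB-231-hC (5.67, 4.81 and 4.63). Its MDA-MB-231-hOSM mean was 205-fold above the guide (adjusted p = 0.000205 between the lines, limma). GPC6, a glypican, was 12.8-fold higher (adjusted p = 0.000105), and the urokinase receptor PLAUR was 3.70-fold higher (adjusted p = 0.000551). ULBP2, a ligand of the NKG2D receptor, was 2.44-fold higher (adjusted p = 0.00226). LY6K was lower (-1.18, adjusted p = 0.0559) and was not called whichever set was left out.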
